A study of Rattus norvegicus with 24 samples.

Results

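Monuron, the herbicide named 3-(4-chlorophenyl)-1,1-dimethylurea in the sample labels, was compared with 1,2-dichlorobenzene, a chlorinated solvent, in rat liver. Both molecules carry chlorine on a benzene ring. The ring of monuron also carries a dimethylurea group, whereas that of 1,2-dichlorobenzene carries a second chlorine on the neighbouring carbon. The study's design text lists monuron among its carcinogens and 1,2-dichlorobenzene among its non-carcinogens. The comparison used 8 of the 24 arrays of the series, chosen by the compound label: 4 rats dosed with monuron at 250 mg/kg/day and 4 rats dosed with 1,2-dichlorobenzene at 300 mg/kg/day. All were male F344 rats, an inbred laboratory strain, given as 5 weeks old, and all received their compound in corn oil by gavage once daily for 28 days. The doses differed, so compound and dose cannot be told apart. RNA of each treated liver, labelled with Cy3, was hybridised to 1 array against Cy5-labelled RNA pooled from rats given corn oil alone. No array had the dyes swapped, and each value below is a log2 ratio of treated liver over that vehicle pool. A difference is the mean log2 ratio with monuron minus that with 1,2-dichlorobenzene.

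The liver clears foreign compounds in steps. Cytochromes P450 oxidise them, transferases then attach glutathione, glucuronic acid or sulfate, and transporters export the products. Nuclear receptors (CAR, PXR and the aryl hydrocarbon receptor) and the oxidative stress factor Nrf2 set the levels of many of these enzymes. Hepatocytes also differ by position in the lobule: those around the central vein (perivenous) express glutamine synthesis, ornithine aminotransferase and much of the P450 system, while those near the portal tract (periportal) carry out gluconeogenesis and urea synthesis.

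The test covered 11592 genes bright enough to measure, and 4759 of these had a symbol. On the 8 arrays, the share of probes well above background was 59.7 to 66.4% for the treated dye and 64.2 to 68.6% for the vehicle dye. The number of arrays limits the precision. Duplicate spots of a probe correlated at 0.945 to 0.979 across probes within an array, and monuron replicate 1 had the lowest value. Genes counted as called had a difference of at least 2-fold and, in limma, an adjusted p under 0.05 by the Benjamini-Hochberg method. All 8 arrays were scanned on the same day, but the 4 of each compound shared a slide of their own, so an effect of the slide cannot be told apart from one of the compound. Among 30 gene lists, the 23 measured genes of secreted hepatocyte proteins held the highest summed signal in the treated channel, at 2494393 to 2522069 per monuron array, against 2352843 to 2629679 per 1,2-dichlorobenzene array.

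Between the compounds 114 genes were called, 0.983% of those tested: 60 were higher with monuron (0.518%) and 54 lower (0.466%). Of these, 58 had an established symbol, 33 higher and 25 lower. The other 56 were entries without one, counted under a cluster, record or provisional name. Some lay close to a named gene, with differences of 4.36 beside 4.45 for Inmt and 2.738 beside 2.737 for Cyp1a2. A transcript may thus be counted more than once, and the counts are of entries and not of distinct genes. On 112 of the 114 all rats of one compound lay beyond all rats of the other, which held for 32.1% of all genes tested. Against vehicle, 85 genes rose (0.733% of those tested) and 77 fell (0.664%) with monuron, and 90 rose (0.776%) and 96 fell (0.828%) with 1,2-dichlorobenzene. Both comparisons contain a vehicle pool, and each compound's own values are given side by side below. Among the 60 genes higher with monuron, 27 were at least 2-fold above vehicle with monuron and 22 were at least 2-fold below vehicle with 1,2-dichlorobenzene, and 3 genes met both conditions. Among the 54 genes lower with monuron, 10 were at least 2-fold below vehicle with monuron and 28 at least 2-fold above vehicle with 1,2-dichlorobenzene, and 0 genes met both conditions. The median difference over all genes was -0.02. The shares called, 0.518% higher and 0.466% lower, are those to set beside each count of called list members below. At the adjusted p alone 10.4% of all genes tested were higher with monuron and 13.5% lower, the shares to set beside list counts at that threshold. The count was 221 with the scanner's own log ratio and 211 with the deposited series table, which add no offset to dim signals, and 70 without background correction, where Cyp3a9, Gucy2c, Fhit, Ica1, Mcm6, Hsd17b7, Gbp2 and Cldn7 of the genes named below were under 2-fold. Of the 114 genes, 112 were also called from the series table, in which the differences of Inmt and Gstp1 were 5.08 and -4.28. Called genes are named below by their size and by gene list, and list members that were not called are named as examples chosen after their values were seen.

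**Figure D1:**
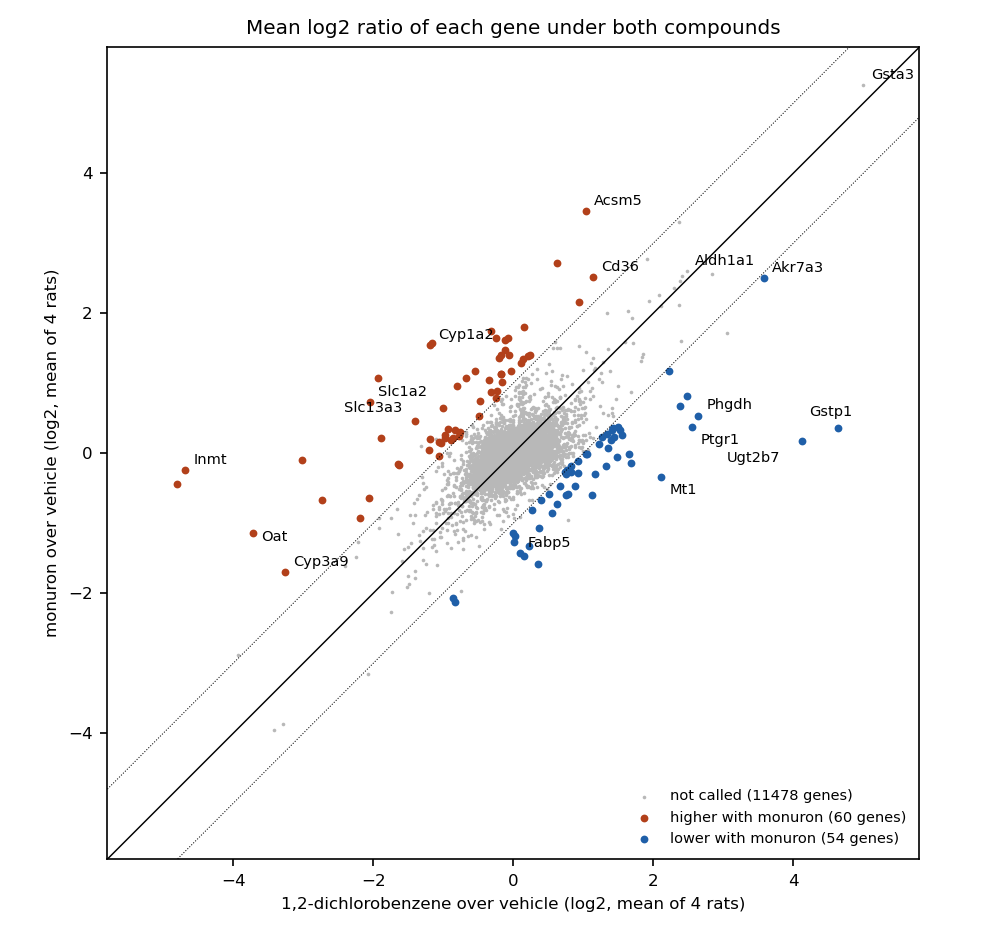
Mean log2 ratio over vehicle of each of 11592 genes under 1,2-dichlorobenzene (horizontal axis) and monuron (vertical axis), 4 rats each, with the 60 genes called higher with monuron and the 54 called lower in colour. The solid line marks equal means and the dotted lines 2-fold; Inmt and Oat lie far to the left, Gstp1 and Ugt2b7 far to the right, and Gsta3 near the line of equal means.

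Gstp1 and Ugt2b7, which take part in conjugation, had the largest differences below 0 among the named genes. Gstp1, the pi class glutathione transferase that marks preneoplastic foci in rat liver, had log2 ratios of 0.50, 0.42, 0.23 and 0.26 in the 4 monuron rats, against 4.93, 5.00, 4.39 and 4.21 in the 4 1,2-dichlorobenzene rats. The rats of the compounds did not overlap, which the choice of Gstp1 among the largest differences required. Against vehicle, in limma, Gstp1 rose with 1,2-dichlorobenzene (adjusted p = 1.63e-15) and did not pass the test with monuron (adjusted p = 0.0521). The difference was -4.28 (95% interval -4.71 to -3.86, adjusted p = 6.1e-12), or 19.5-fold lower with monuron, and its probes gave -4.28 to -3.34. Ugt2b7, a glucuronosyltransferase, had log2 ratios of 0.16, 0.41, 0.04 and 0.07 with monuron, against 4.29, 4.12, 4.20 and 3.86 with 1,2-dichlorobenzene. In the monuron livers its treated signal was not well above background on any array. Its fitted difference was -3.95 (adjusted p = 1.03e-12), and in the treated channel, set against the lowest signal well above background, it was at least 28.5-fold lower with monuron. Its vehicle signal also differed, being well above background on the 4 1,2-dichlorobenzene arrays and on 0 of the 4 monuron arrays.

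The promoter of Gstp1 is shown because Gstp1 had the largest difference below 0 among the called genes. It holds a match to the AP-1 site TGANTCA, where N is any base, 61 to 55 bases before the annotated start, and the capitals mark that match. The same letters overlap a match to the antioxidant response core TGACNNNGC. Over the 250 bases before the start, on both strands, TGANTCA occurred in 6.34% and TGACNNNGC in 10.1% of 33469 rat promoters. A match describes letters and not a bound site. The promoter of Idi1, a gene higher with monuron shown further below, also holds matches to TGANTCA and TGACNNNGC, not marked there. The sequence is that of RefSeq on GRCr8, chr1:210769706-210769955, minus strand, written 5′ to 3′ up to the start.
Gstp1: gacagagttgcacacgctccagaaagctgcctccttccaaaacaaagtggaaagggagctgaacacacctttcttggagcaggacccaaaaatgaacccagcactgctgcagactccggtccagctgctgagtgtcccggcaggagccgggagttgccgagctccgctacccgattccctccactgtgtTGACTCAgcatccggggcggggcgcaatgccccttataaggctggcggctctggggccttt

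The reductase genes Ptgr1, Akr1b8 and Akr7a3 were called lower with monuron. Ptgr1, a prostaglandin and alkenal reductase, averaged 0.37 ± 0.089 with monuron and 2.55 ± 0.54 with 1,2-dichlorobenzene (SD, n = 4 each), a difference of -2.18 (adjusted p = 3.24e-08). Akr1b8, an aldo-keto reductase, had log2 ratios of 0.62, 0.80, 0.67 and 0.62 in the monuron rats and 3.89, 3.17, 1.60 and 0.86 in the 1,2-dichlorobenzene rats. The monuron rats lay close together, whereas the 1,2-dichlorobenzene rats spread over 3 log2 units without overlapping them. The choice of Akr1b8 among the largest differences required that the rats not overlap. Its difference of -1.70 had an adjusted p of 0.00317, and of 0.052 when only these 8 arrays were fitted, and in the treated channel alone of 0.0952. Akr7a3, an aflatoxin aldehyde reductase, rose against vehicle under both compounds, to 2.50 ± 0.19 with monuron and 3.58 ± 0.23 with 1,2-dichlorobenzene, and its difference of -1.08 was called.

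Of 20 measured Nrf2 targets 3 were called, all lower with monuron, among them Akr1b8 and Akr7a3, and 0 were higher, though 1 was called higher without monuron replicate 4 or 1,2-dichlorobenzene replicate 2. Without the fold limit 1 was higher and 8 were lower, where 13.5% of all genes were lower and 10.4% higher. The quinone reductase Nqo1 rose against vehicle to 1.60 ± 0.13 with monuron and 2.39 ± 0.25 with 1,2-dichlorobenzene, and passed the adjusted p but not 2-fold (-0.80). The haem oxygenase Hmox1 was the single member higher with monuron at the adjusted p alone, at 0.94 ± 0.40 with monuron and 0.04 ± 0.28 with 1,2-dichlorobenzene. The median difference of the list was -0.17, beside -0.02 for all genes tested. Its mean was 0.70, 0.76, 0.63 and 0.70 on the monuron arrays and 1.24, 1.17, 0.91 and 0.75 on the 1,2-dichlorobenzene arrays. The highest 2 values were those of 1,2-dichlorobenzene replicates 1 and 2, and the arrays of the compounds overlapped at 1,2-dichlorobenzene replicate 4.

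Of 16 measured glutathione transferases only Gstp1 was called, and 15 were not. Gsta3, an alpha class transferase, stood out against vehicle under both compounds, at 5.25 ± 0.063 with monuron and 4.99 ± 0.37 with 1,2-dichlorobenzene. It is named here, like Gstt3, Aldh1a1, Gpx2 and Ugt2b1, because its values were seen to be high. Its difference of 0.27 was not called (95% interval -0.55 to 1.09, adjusted p = 0.674). Gstt3 was at 2.25 ± 0.037 with monuron and 2.09 ± 0.16 with 1,2-dichlorobenzene (interval of the difference -0.19 to 0.52). The aldehyde dehydrogenase Aldh1a1 was at 2.60 ± 0.14 with monuron and 2.48 ± 0.31 with 1,2-dichlorobenzene (-0.35 to 0.59). The glutathione peroxidase Gpx2 was at 2.52 ± 0.16 with monuron and 2.40 ± 0.37 with 1,2-dichlorobenzene (-0.25 to 0.49), and the glucuronosyltransferase Ugt2b1 at 2.12 ± 0.068 with monuron and 2.36 ± 0.21 with 1,2-dichlorobenzene (-0.54 to 0.06). All 5 passed the adjusted p against vehicle under both compounds. The intervals of Gstt3, Aldh1a1, Gpx2 and Ugt2b1 lay within 2-fold on either side of 0, and that of Gsta3 passed it. Closely related transferases may share probe signal, and this was not tested.

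**Figure D2:**
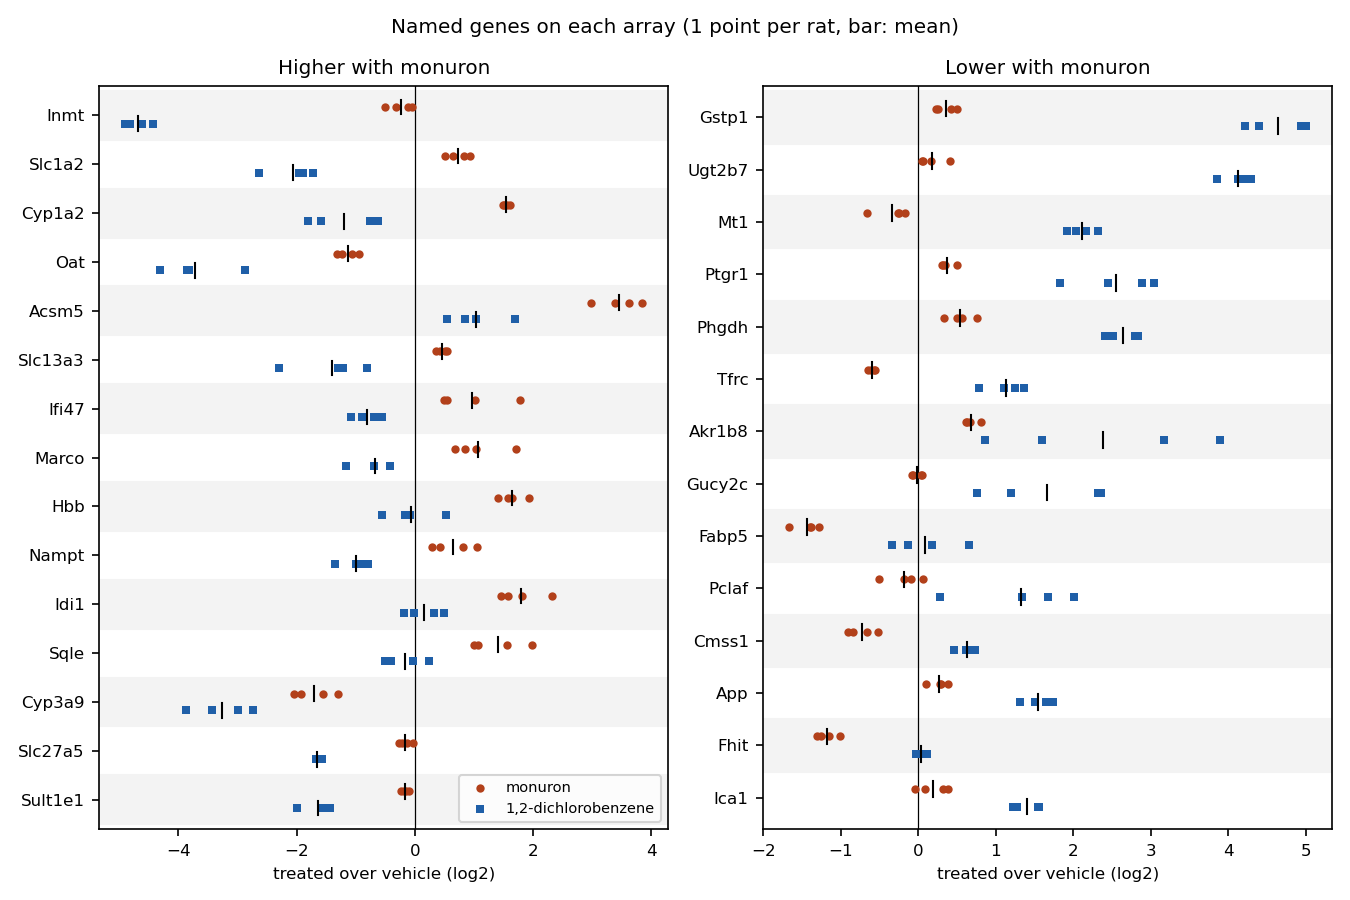
Log2 ratio over vehicle on each array for the 15 named genes with the largest differences above 0 (left) and 14 of those with the largest below 0 (right), with monuron rats as circles above 1,2-dichlorobenzene rats as squares and a bar at each mean of 4. For every gene shown the 2 sets of rats do not overlap, which the choice of these genes required.

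Single genes of metal binding, iron uptake and serine synthesis were also lower with monuron. Mt1, a metallothionein that binds zinc and cadmium, had log2 ratios of -0.26, -0.66, -0.26 and -0.18 with monuron and 2.32, 2.04, 2.17 and 1.92 with 1,2-dichlorobenzene. All 4 monuron rats lay below vehicle and all 4 1,2-dichlorobenzene rats about 2 log2 units above it. The difference was -2.45 (SE 0.37, adjusted p = 6.37e-05), and the probes of Mt1 gave -2.75 to -2.42. Tfrc, the transferrin receptor that takes up iron, averaged -0.60 ± 0.038 with monuron and 1.13 ± 0.25 with 1,2-dichlorobenzene. Its difference was -1.72 (adjusted p = 2.01e-06), while another probe of Tfrc gave -0.60. Mt1 and Tfrc were the 2 called of 15 measured genes of metals, haem and iron, both lower, and 1 member was called higher without monuron replicate 4 or 1,2-dichlorobenzene replicate 2. The list median was 0.08, and -0.01 with median centring. Phgdh, the first enzyme of serine synthesis, had log2 ratios of 0.33, 0.76, 0.56 and 0.49 with monuron and 2.84, 2.80, 2.51 and 2.40 with 1,2-dichlorobenzene, and its difference was -2.10 (adjusted p = 0.000273). It was the 1 called of 16 measured genes of serine, asparagine and amino acid stress, where 2 were called lower in the treated channel alone, with median centring, and without any 1 of monuron replicates 1, 2 and 3 or 1,2-dichlorobenzene replicates 2 and 3. Asns, the asparagine synthetase of that list, was at 1.17 ± 0.16 with monuron and 1.37 ± 0.28 with 1,2-dichlorobenzene and was not called.

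The promoter of Mt1 is shown because metal response elements are known from metallothionein genes. The capitals mark every match on either strand to the metal response core, spelled TGCACNC or TGCGCNC. There were 3 matches to TGCACNC, 1 of them on the opposite strand, and 3 to TGCGCNC within 250 bases. Across all 33469 promoters, 10.3% held TGCACNC and 11.8% held TGCGCNC at least once. The sequence is that of RefSeq on GRCr8, chr19:10832976-10833225, minus strand.
Mt1: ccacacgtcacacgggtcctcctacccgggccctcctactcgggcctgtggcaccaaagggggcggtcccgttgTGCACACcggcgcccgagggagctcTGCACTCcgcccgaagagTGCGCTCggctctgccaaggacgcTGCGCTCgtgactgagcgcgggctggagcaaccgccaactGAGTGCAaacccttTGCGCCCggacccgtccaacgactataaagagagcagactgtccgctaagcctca

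Of 16 measured perivenous hepatocyte genes 6 were called, all higher with monuron, and 0 were lower. The list averaged 0.22, 0.20, 0.21 and 0.26 on the monuron arrays and -1.01, -0.78, -0.84 and -0.82 on the 1,2-dichlorobenzene arrays. The arrays of the compounds did not overlap. This was not particular to the perivenous list, since cholesterol synthesis, glutathione transferases, acute phase response and red cell precursors, among others, did not overlap either. The median difference was 0.42, and 6 members were also called whichever of the 8 arrays was left out. In whole liver, fewer cells of a type and less RNA per cell cannot be told apart.

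Inmt, which methylates indole amines, had log2 ratios of -0.32, -0.04, -0.11 and -0.50 with monuron and -4.82, -4.90, -4.62 and -4.42 with 1,2-dichlorobenzene. Against vehicle it did not pass the test with monuron (adjusted p = 0.562) and fell with 1,2-dichlorobenzene (adjusted p = 3.21e-10). The difference of 4.45 (95% interval 3.49 to 5.40, adjusted p = 6.08e-07) corresponds to 21.8-fold higher with monuron. Oat, the ornithine aminotransferase, had log2 ratios of -0.95, -1.31, -1.06 and -1.23 with monuron and -4.32, -3.86, -3.83 and -2.88 with 1,2-dichlorobenzene, so it fell under both and further under 1,2-dichlorobenzene (2.58, adjusted p = 7.52e-05). The glutamate transporter gene Slc1a2 had log2 ratios of 0.83, 0.93, 0.64 and 0.50 with monuron and -2.64, -1.73, -1.95 and -1.90 with 1,2-dichlorobenzene. It thus rose against vehicle with monuron (adjusted p = 2.9e-05) and fell with 1,2-dichlorobenzene (adjusted p = 1.38e-11), and its 2 probes gave differences of 1.14 and 2.78. The dicarboxylate transporter gene Slc13a3 averaged 0.46 ± 0.078 with monuron and -1.40 ± 0.63 with 1,2-dichlorobenzene (difference 1.86, adjusted p = 2.56e-06). Glul, the glutamine synthetase of the cells next to the central vein, had log2 ratios of 0.27, 0.26, 0.13 and 0.17 with monuron and -1.36, -0.91, -0.82 and -0.83 with 1,2-dichlorobenzene, a difference of 1.19 (adjusted p = 3.09e-07). Members not called included Cyp2e1, at 0.80 ± 0.018 with monuron and 0.23 ± 0.17 with 1,2-dichlorobenzene, and Cyp7a1, the rate-limiting enzyme of bile acid synthesis, at 0.11 ± 0.40 with monuron and 0.09 ± 0.67 with 1,2-dichlorobenzene. Among 23 measured periportal genes 0 were called, and without the fold limit 1 passed, lower, with a median of -0.10 that was 0.07 in the treated channel alone. Their list averaged -0.54, -0.44, -0.55 and -0.77 on the monuron arrays and -0.41, -0.48, -0.61 and -0.37 on the 1,2-dichlorobenzene arrays.

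Cyp1a2, a perivenous P450 and a target of the aryl hydrocarbon receptor, had log2 ratios of 1.51, 1.57, 1.49 and 1.61 with monuron and -1.58, -1.81, -0.62 and -0.76 with 1,2-dichlorobenzene. The compounds moved it in opposite directions against vehicle (adjusted p = 2.7e-08 with monuron and 4.65e-07 with 1,2-dichlorobenzene), and the difference was 2.74 (adjusted p = 6.45e-09). Cyp1a1, the receptor's most responsive target, averaged 2.77 ± 0.37 with monuron and 1.91 ± 0.83 with 1,2-dichlorobenzene, and its difference of 0.86 was not called (adjusted p = 0.179). Its vehicle signal was well above background on 1 monuron array and on 0 of the 1,2-dichlorobenzene arrays, so these ratios rest on a dim vehicle channel. Cyp1a2 was the 1 called of 5 measured targets. At the adjusted p alone Nqo1 and the glucuronosyltransferase Ugt1a6 were lower with monuron (-0.80 and -0.45), so the list held calls of both signs at that threshold.

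Of 21 measured CAR and PXR targets 3 were called, all higher with monuron, with a median of 0.12. Of all genes tested 0.518% were called higher. At the adjusted p alone 8 targets were higher and 0 lower, where 10.4% of all genes were higher and 13.5% lower. In the treated channel alone 6 were higher and 2 lower at that threshold, and with median centring 2 and 0. With median centring 1 was called and the median was -0.004, and without replicate 1 of either compound 2 were called. Cyp3a9, a member of the CYP3A family that rat females express more, averaged -1.70 ± 0.35 with monuron and -3.26 ± 0.49 with 1,2-dichlorobenzene. It fell under both compounds, and further with 1,2-dichlorobenzene (1.56, adjusted p = 0.00216). Cyp3a23-3a1 and Cyp3a2, which take part in drug and steroid oxidation, averaged 0.33 ± 0.16 and 0.53 ± 0.17 with monuron, against -0.83 ± 0.22 and -0.49 ± 0.20 with 1,2-dichlorobenzene. Their differences were 1.16 and 1.03 (adjusted p = 0.000102 and 0.00373), and Cyp3a2 dropped under 2-fold without monuron replicate 1 or 1,2-dichlorobenzene replicate 1 (0.96 and 0.93). When arrays were centred on their median and not scaled by loess, Cyp3a9 alone of the 3 stayed called, since Cyp3a23-3a1 was at 0.96 and Cyp3a2 at 0.82. Members raised by both compounds, such as Cyp2c6v1 at 1.29 ± 0.14 with monuron and 1.10 ± 0.20 with 1,2-dichlorobenzene, were not called. Related CYP3A genes may share probe signal, and this was not tested.

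Sult1e1, a sulfotransferase that inactivates oestrogens, averaged -0.17 ± 0.058 with monuron and -1.64 ± 0.24 with 1,2-dichlorobenzene, a difference of 1.47 (adjusted p = 2.62e-05). The prolactin receptor gene Prlr averaged 1.29 ± 0.18 with monuron and 0.11 ± 0.067 with 1,2-dichlorobenzene, so it rose with monuron (adjusted p = 1.26e-07 against vehicle) and the difference was 1.18. Of 16 measured male-biased liver genes, Sult1e1 and Cyp3a2 were called (3 genes without monuron replicate 3, and 1 without replicate 1 of either compound or with median centring), and of 13 measured female-biased ones, Cyp3a9 and Prlr. All 4 were higher with monuron, where 0.518% of all genes tested were called higher. Slc27a5, the ligase that activates bile acids for conjugation, had log2 ratios of -0.03, -0.27, -0.21 and -0.14 with monuron and -1.67, -1.57, -1.68 and -1.67 with 1,2-dichlorobenzene. It was the 1 called of 18 measured genes of bile acid synthesis and transport (1.49, adjusted p = 7.3e-08). Without the fold limit 6 of the list passed, all higher (10.4% of all genes were), but 1 with median centring.

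Of 19 measured genes of cholesterol synthesis 4 were called, all higher with monuron, and 0 were lower. At the adjusted p alone 10 were higher, as were 10.4% of all genes tested. All 19 differences were above 0, with a median of 0.48. Idi1, the isopentenyl diphosphate isomerase, had log2 ratios of 2.32, 1.58, 1.46 and 1.82 with monuron and 0.32, 0.49, -0.01 and -0.19 with 1,2-dichlorobenzene. Every monuron rat lay more than 2-fold above vehicle and the 1,2-dichlorobenzene rats lay around it, which gave a difference of 1.64 (adjusted p = 4.45e-05). Sqle, the squalene epoxidase, had log2 ratios of 1.98, 1.07, 1.00 and 1.55 with monuron and -0.02, 0.23, -0.40 and -0.51 with 1,2-dichlorobenzene (1.57, adjusted p = 9.7e-05). Cyp51, the lanosterol demethylase, averaged 1.13 ± 0.19 with monuron and -0.18 ± 0.21 with 1,2-dichlorobenzene, and Hsd17b7, a sterol ketoreductase, 0.89 ± 0.29 with monuron and -0.23 ± 0.22 with 1,2-dichlorobenzene. Their differences were 1.31 and 1.12 (adjusted p = 7.27e-05 and 0.000127). Monuron replicate 1 had the highest list mean, at 1.16, with 0.64 to 0.76 on the other monuron arrays and 0.02 to 0.30 on the 1,2-dichlorobenzene arrays. Without it 3 members were called, with Hsd17b7 at 0.98, and in the treated channel alone 2 were, with Cyp51 at 0.94 and Hsd17b7 at 0.89.

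The promoter of Idi1, the called sterol gene with the largest difference, is shown with its CCAAT boxes in capitals, read here on the opposite strand as ATTGG. These letters were found within 250 bases before the start of 12 of the 14 measured cholesterol synthesis genes with a promoter in the table, and in 34% of all 33469 promoters. The sterol response element, spelled TCACNCCAC, was found in 0 of the 14 and in 0.974% of all promoters. Only this spelling was searched, so other spellings of the element, or sites further away, were not counted. Other motifs searched were also more frequent in the 14 than in all promoters. These were the dioxin response core GCGTG (57.1% against 25.9%), TGACNNNGC (28.6% against 10.1%), TGCGCNC (21.4% against 11.8%) and TGANTCA (14.3% against 6.34%). TGCACNC was less frequent (7.14% against 10.3%), so a raised share was not particular to the CCAAT box. The sequence is that of RefSeq on GRCr8, chr17:66547525-66547774, minus strand.
Idi1: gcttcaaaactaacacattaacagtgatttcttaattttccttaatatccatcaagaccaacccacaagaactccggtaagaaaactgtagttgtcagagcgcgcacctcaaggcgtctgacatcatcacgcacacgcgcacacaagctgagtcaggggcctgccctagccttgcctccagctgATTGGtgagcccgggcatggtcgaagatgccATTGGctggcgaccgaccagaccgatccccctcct

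Single genes of fatty acid handling were called. Acsm5, a mitochondrial medium-chain acyl-CoA synthetase, had log2 ratios of 3.63, 2.97, 3.38 and 3.85 with monuron and 1.03, 1.69, 0.85 and 0.55 with 1,2-dichlorobenzene, and it rose against vehicle under both. The difference was 2.43 (SE 0.53, adjusted p = 0.00212). The fatty acid transporter gene Cd36 averaged 2.52 ± 0.11 with monuron and 1.14 ± 0.36 with 1,2-dichlorobenzene (1.38, adjusted p = 0.00132), and was the 1 called of 25 measured targets of PPARalpha, whose median was 0.02, with -0.07 in the treated channel alone and -0.11 with median centring. In the treated channel, or without 1,2-dichlorobenzene replicate 4, 1 of these targets was called lower. Fabp5, a fatty acid binding protein, fell with monuron to -1.43 ± 0.16 and was at 0.09 ± 0.43 with 1,2-dichlorobenzene, a difference of -1.52 (adjusted p = 0.00296).

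**Figure D3:**
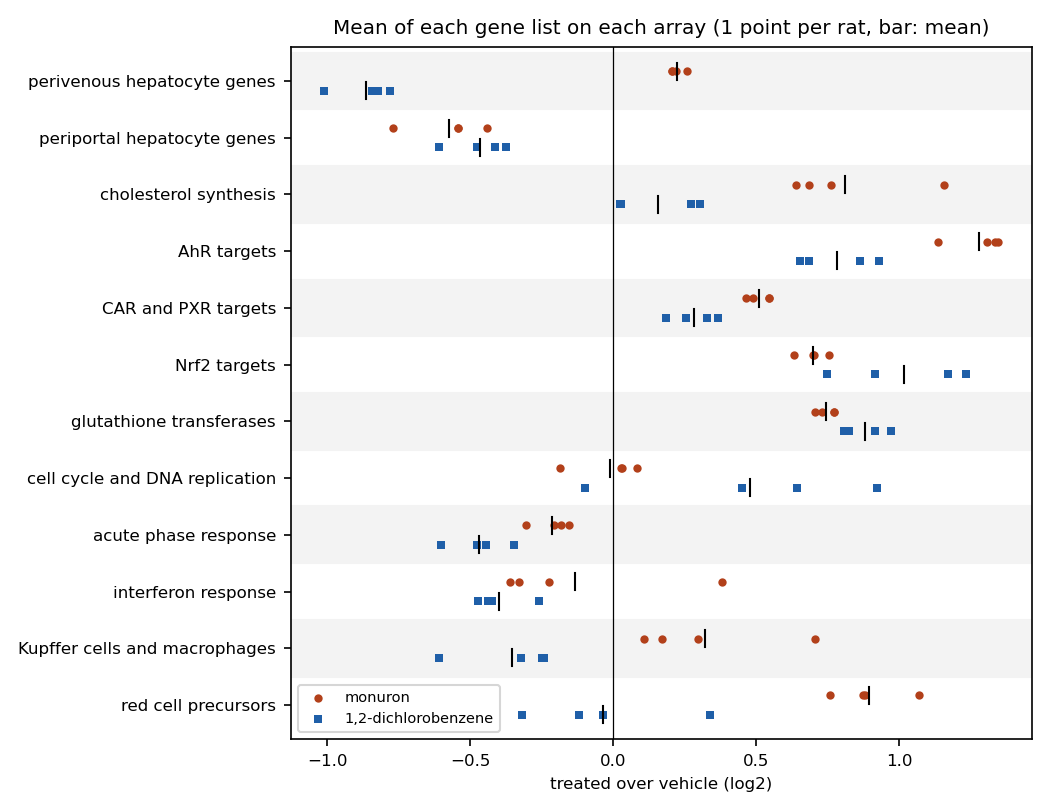
Mean log2 ratio over vehicle of the measured members of 12 gene lists on each array, with monuron rats as circles above 1,2-dichlorobenzene rats as squares and a bar at each mean of 4. The perivenous list does not overlap between the compounds. Neither do cholesterol synthesis, AhR targets, CAR and PXR targets, glutathione transferases, acute phase response, Kupffer cells and red cell precursors. The cell cycle list overlaps through 1 rat of 1,2-dichlorobenzene, and monuron replicate 1 stands above the other monuron rats for interferon response, Kupffer cells and cholesterol synthesis.

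Pclaf and Mcm6, which act in DNA replication, were called lower with monuron. Pclaf, a protein that binds the replication clamp PCNA, had log2 ratios of -0.19, -0.51, 0.06 and -0.09 with monuron and 1.33, 2.00, 1.67 and 0.28 with 1,2-dichlorobenzene. Mcm6, a subunit of the replicative helicase, had log2 ratios of 0.45, 0.32, 0.41 and 0.34 with monuron and 1.54, 1.95, 1.75 and 0.74 with 1,2-dichlorobenzene. The rats did not overlap in either gene, which the choice of Pclaf required and which held for 32.1% of all genes tested. In both genes 1,2-dichlorobenzene replicate 4 was the lowest of its group. The differences were -1.50 (adjusted p = 0.00903) and -1.12 (adjusted p = 0.00152). Of 21 measured genes of the cell cycle Mcm6 alone was called, lower with monuron. At the adjusted p alone 9 were lower and 1, Ccnd1, was higher, where 13.5% of all genes tested were lower and 10.4% higher. The list averaged 0.03, -0.19, 0.08 and 0.03 on the monuron arrays and 0.45, 0.92, 0.64 and -0.10 on the 1,2-dichlorobenzene arrays, and 1,2-dichlorobenzene replicate 4 lay among the monuron rats. The count called was 3 without 1,2-dichlorobenzene replicate 4 and in the treated channel alone, and 0 without 1,2-dichlorobenzene replicate 2, where Mcm6 was at -0.96.

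Markers of other cell types were counted next. Among 12 measured markers of Kupffer cells, the resident macrophages of the liver, 1 was called, higher. At the adjusted p alone 10 passed, all higher, where 10.4% of all genes tested were higher. The median difference was 0.59, against 0.30 in the treated channel and -0.28 in the vehicle channel, and for 6 of the 12 the vehicle channel differed by more than the treated one. Their summed treated-channel signal ranged from 98068 to 147759 per monuron array, against 72820 to 97463 per 1,2-dichlorobenzene array. Marco, a scavenger receptor of macrophages, had log2 ratios of 1.71, 1.03, 0.68 and 0.86 with monuron and -1.16, -0.69, -0.41 and -0.43 with 1,2-dichlorobenzene, and its difference was 1.74 (adjusted p = 0.000208). Clec4f, a lectin of Kupffer cells, was at 0.18 ± 0.24 with monuron and -0.29 ± 0.29 with 1,2-dichlorobenzene and did not pass (adjusted p = 0.0518). In the treated channel alone 3 of the 12 passed the adjusted p, and 5 did with median centring. Without monuron replicate 4 or 1,2-dichlorobenzene replicate 2, 2 markers were called.

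Ifi47 and Gbp2, both interferon-inducible, were called higher with monuron. Ifi47, an interferon-induced GTPase, had log2 ratios of 1.78, 1.01, 0.55 and 0.50 with monuron and -1.09, -0.69, -0.55 and -0.90 with 1,2-dichlorobenzene (1.77, adjusted p = 0.000242). Gbp2, another GTPase of that kind, had log2 ratios of 1.31, -0.03, -0.04 and -0.03 with monuron and -0.93, -0.71, -0.62 and -0.82 with 1,2-dichlorobenzene. Monuron replicate 1 was far above the other monuron rats in Gbp2, and without it the difference was 0.74 in place of 1.07, under 2-fold. Gbp2 was the 1 called of 12 measured genes of the interferon list, which had 0 called without that rat or in the treated channel alone and 2 without 1,2-dichlorobenzene replicate 4. At the adjusted p alone 5 of the list were higher with monuron and 1, Oasl (-0.54), was lower. Among all genes tested 10.4% were higher and 13.5% lower at that threshold. Without monuron replicate 1 the list had 3 higher and 1 lower. Monuron replicate 1 was also the highest of the monuron rats for the Kupffer list (0.71, the others 0.11 to 0.30) and the lymphocyte list (0.17, the others -0.37 to -0.34). The part of these cells in the interferon values was not tested.

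Hbb, a beta globin of red cells, had log2 ratios of 1.65, 1.58, 1.40 and 1.93 with monuron and -0.56, -0.08, -0.17 and 0.53 with 1,2-dichlorobenzene, and Alas2, the red cell form of the first enzyme of haem synthesis, 1.11, 1.12, 1.02 and 1.27 with monuron and -0.48, -0.25, -0.29 and 0.34 with 1,2-dichlorobenzene. Both rose with monuron against vehicle, with differences of 1.71 and 1.30 (adjusted p = 1.72e-05 and 1.34e-05). Of 4 measured genes of red cell precursors these 2 were called and the haemoglobin chaperone Ahsp passed the adjusted p alone (0.72), while the brightest probe of the alpha globin Hba-a1 was at -0.24 ± 0.026 with monuron and -0.23 ± 0.048 with 1,2-dichlorobenzene. Another probe of Hba-a1 gave a difference of 1.42, so its probes disagree. The summed signal of the 4 was 69711 to 95501 per monuron array, against 28717 to 49996 per 1,2-dichlorobenzene array. In Hbb and Alas2 the rats of the compounds did not overlap, as in 32.1% of all genes tested. The choice of Hbb among the largest differences required it. The share of blood in the samples was not tested.

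The remaining named genes that were lower with monuron have varied functions. App, the amyloid precursor protein gene, averaged 0.26 ± 0.12 with monuron and 1.55 ± 0.19 with 1,2-dichlorobenzene (-1.29, adjusted p = 8.36e-08). Ica1, an islet autoantigen gene, averaged 0.19 ± 0.20 with monuron and 1.40 ± 0.18 with 1,2-dichlorobenzene (-1.21), and Cldn7, a tight junction claudin, -0.01 ± 0.17 with monuron and 1.05 ± 0.30 with 1,2-dichlorobenzene (-1.06, adjusted p = 0.0115). Cldn7 was the 1 called of 11 measured bile duct markers, whose summed signal was 114110 to 133632 per monuron array, against 118312 to 166772 per 1,2-dichlorobenzene array, and it was at -0.99 without monuron replicate 3 and at -0.96 without 1,2-dichlorobenzene replicate 1. Cmss1 averaged -0.73 ± 0.17 with monuron and 0.62 ± 0.12 with 1,2-dichlorobenzene (-1.36, limma, adjusted p = 2.28e-08). Fhit, a nucleotide hydrolase gene, had log2 ratios of -1.02, -1.31, -1.26 and -1.15 with monuron and -0.01, 0.11, 0.03 and -0.03 with 1,2-dichlorobenzene, and Gucy2c, a receptor guanylate cyclase, 0.05, 0.03, -0.07 and -0.08 with monuron and 2.36, 2.31, 1.20 and 0.75 with 1,2-dichlorobenzene. Neither was well above background in the treated channel of any monuron array, so in that channel Fhit was at least 1.86-fold and Gucy2c at least 1.68-fold lower with monuron. Their fitted differences of -1.21 and -1.67 depended on how dim signals were handled, since the series table gave -3.86 and -4.16, and Fhit was at -0.98 with median centring.

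The dye channels were also compared one at a time, because a difference between the vehicle pools would enter the log ratio. The labels give each compound a control group of its own and say that control samples were pooled, and whether the compounds shared a pool is not given. The spread of the pools enters no test, so errors are too small by an unknown amount. Each channel was fitted on the 8 arrays of the compounds alone, so its adjusted p-values rest on fewer arrays than those of the main fit. All 114 called genes kept their sign in the treated channel and 90 were called there. For scale, the log ratios of the 8 arrays alone gave 118 genes called, 113 of them shared with the main fit. The vehicle channel called 5 genes at the adjusted p and 2-fold, 0.0431% of those tested. Smaller vehicle differences passed the adjusted p alone (limma, 8 arrays), as for Inmt (0.33, adjusted p = 4.44e-06) and Cyp1a2 (0.24, adjusted p = 8.4e-05). That of Slc1a2 did not (-0.01, adjusted p = 0.909), and the number of genes passing was not counted. For the 114 genes the median size of the difference was 1.30 in the treated channel and 0.20 in the vehicle channel. The vehicle difference was the larger one for 5 of them, with Nampt the only one described here. Nampt, which makes a precursor of NAD, had log2 ratios of 0.82, 1.06, 0.29 and 0.42 with monuron and -1.35, -0.80, -0.99 and -0.87 with 1,2-dichlorobenzene, a difference of 1.65 (adjusted p = 9.23e-06). Its treated channel differed by 0.49 (adjusted p = 0.0913) and its vehicle channel by -1.15, so most of this difference lay in the vehicle signal. The vehicle channel also differed by over 0.7 for Ugt2b7 (-1.02, beside -4.97 in the treated channel), Phgdh (-0.78 beside -2.88) and Akr7a3 (-0.74 beside -1.82).

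**Figure D4:**
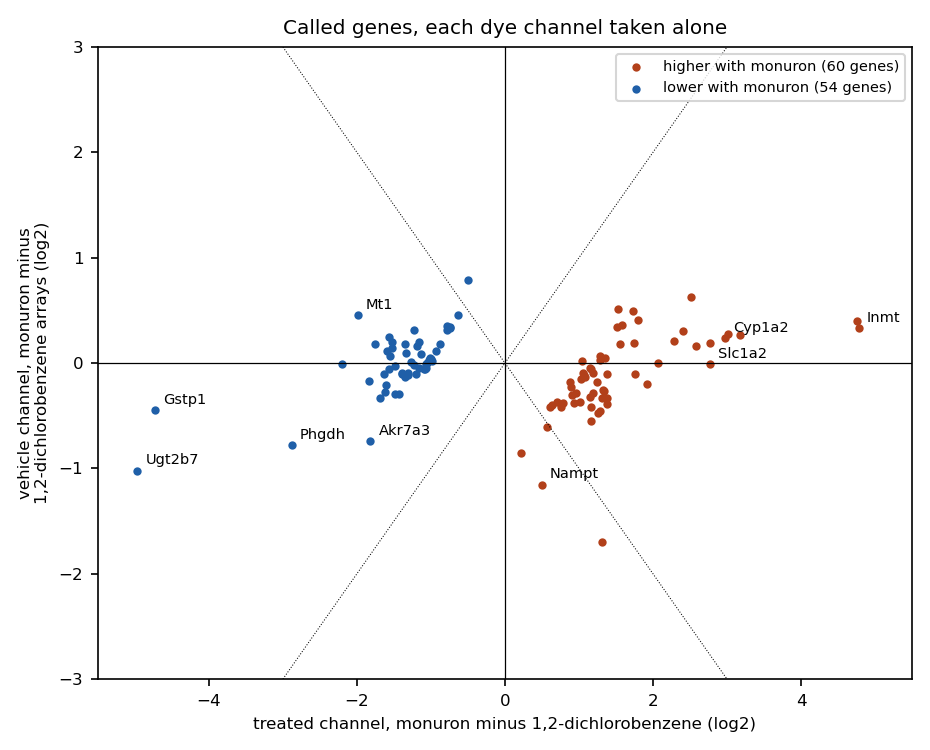
Difference between the monuron and the 1,2-dichlorobenzene arrays for the 114 called genes, in the treated channel (horizontal axis, log2) and in the vehicle channel (vertical axis, log2), with the dotted lines where both are of equal size. Inmt, Slc1a2, Cyp1a2 and Gstp1 lie close to the horizontal axis, whereas Nampt lies beyond the dotted line.

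The other 4 compounds of the series give a scale for these values, as a description with no test. Rats of the same strain, sex and age, 4 per compound, received hexachloroethane at 500, 1,2,3-trichloropropane at 50 or 1-amino-2-methylanthraquinone at 150 mg/kg/day in corn oil, or tetracycline hydrochloride at 1000 mg/kg/day in water, each for 28 days. The fall of Inmt with 1,2-dichlorobenzene (-4.69) was the lowest of 6 compounds, with -2.77 for 1,2,3-trichloropropane and -2.14 for 1-amino-2-methylanthraquinone next. With hexachloroethane and 1,2,3-trichloropropane, Oat was at -2.21 and -2.60 and Slc1a2 at -1.20 and -0.92. Glul was at -1.21 and -0.04 and Slc13a3 at 0.08 and -0.38, in that order. Glul was thus lower with hexachloroethane than with 1,2-dichlorobenzene (-0.98). Gstp1 and Ugt2b7 were also above vehicle with 1,2,3-trichloropropane (2.14 and 2.04), while hexachloroethane, 1-amino-2-methylanthraquinone and tetracycline hydrochloride left Gstp1 between -0.28 and 0.35. Cyp1a2 was highest with 1-amino-2-methylanthraquinone (2.46), then monuron (1.54). Monuron had the highest mean of the 6 compounds for Acsm5, with 2.36 for 1-amino-2-methylanthraquinone next, and for Idi1, with 1.13 for tetracycline hydrochloride next. For Hbb the other 4 compounds lay between -0.25 and 0.26, against 1.64 for monuron, and for Marco between -0.31 and 0.04, against 1.07 for monuron.

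**Figure D5:**
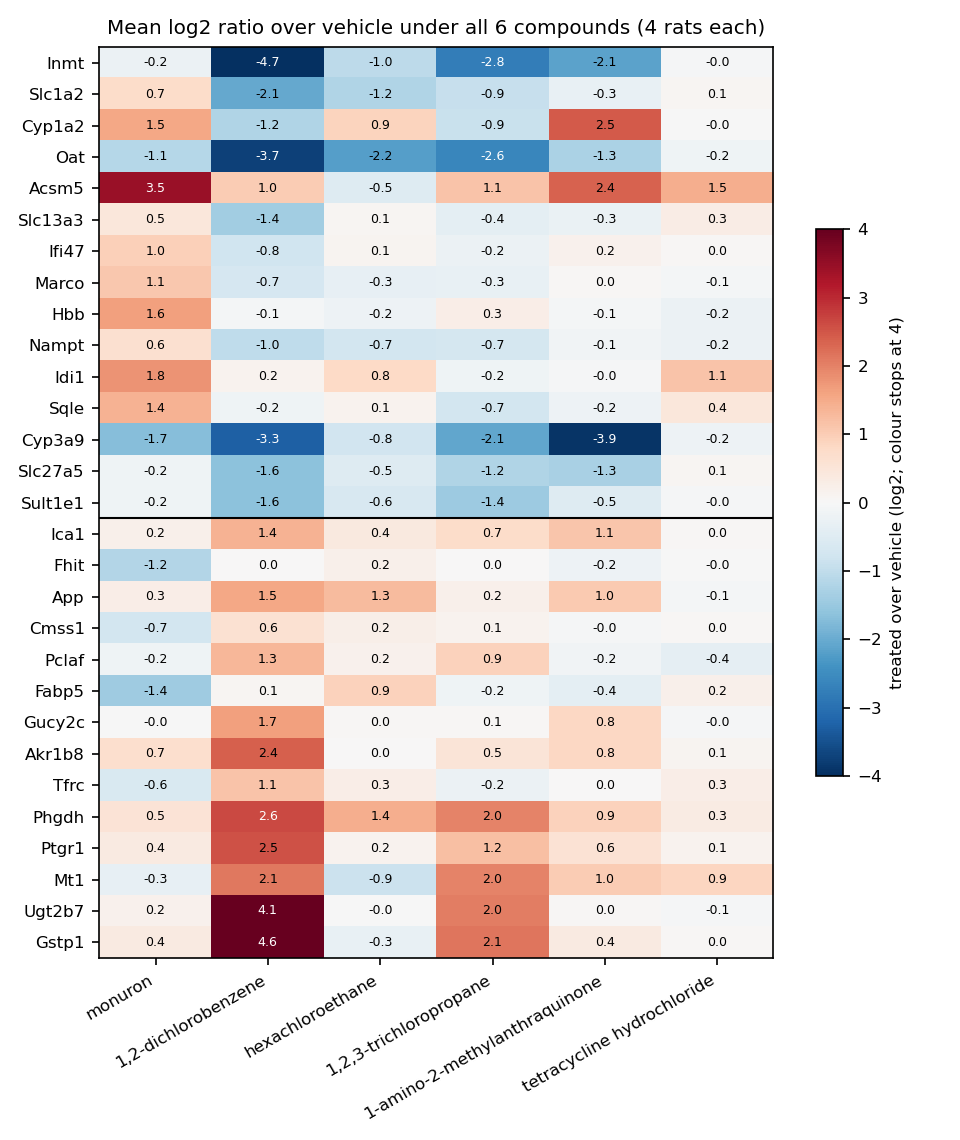
Mean log2 ratio over vehicle of 29 named genes with the largest differences (rows) under each of 6 compounds (columns, 4 rats each), with genes higher with monuron above the line and lower below it. The 1,2-dichlorobenzene column holds the lowest Inmt and the highest Gstp1, and the 1,2,3-trichloropropane column is the closest to it for Gstp1 and Ugt2b7.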

How the data were processed

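RNA from the livers of treated rats and from pooled vehicle rats was hybridised to 2-colour Agilent rat arrays. The deposited scanner files hold spot intensity values for both dyes and a log10 ratio of Cy5 over Cy3, made with Agilent Feature Extraction 9.1.3.1 per the file headers. The deposited series table holds log2 ratios; set against the scanner files, it is the scanner's log10 ratio on the log2 scale with the sign turned, treated over vehicle. Their correlation across probes was lowest, at 0.978, on monuron replicate 1. The dye direction comes from the labels.

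From the intensities, background was corrected with normexp (offset 50), ratios were scaled by loess within each array with control spots at weight 0, outlier spots were dropped, and the 2 spots of a probe were averaged. Of 21900 probes, 16085 were kept: for 1 or more of the compounds, both spots had to exceed background clearly in a channel, throughout its 4 arrays. Where a gene had several probes (3616 genes), the brightest stood for it. Probe names were updated through current symbols, older symbols, RefSeq records or gene IDs where possible, and 11737 probes had no gene name. limma 3.58.1 in R 4.3.3 was fitted to all 24 arrays, 1 mean per compound (18 residual and 2.92 prior degrees of freedom), and the contrast was monuron minus 1,2-dichlorobenzene. Adjusted p-values in the text are from this fit, two-sided, with Benjamini-Hochberg adjustment over all genes tested. Standard errors and intervals come from the same fit, and SDs are between the 4 rats. The number of arrays, not depth, sets the precision. Alternatives varied the background correction, scaling, probe filter, arrays fitted, probe summary, channel, fold limit and the array left out.

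Named genes are the 15 largest differences of each sign among called genes with a symbol and no overlap between rats, up to 6 called members of each gene list, and, where a list had none, the 2 members of largest absolute difference. A gene that met the rule is not reported here. Other genes named were chosen after their values were seen. The compounds compared and the 30 gene lists were chosen with earlier results of these data known. Promoters are those of RefSeq on GRCr8, and 55 of 67 named genes had an entry.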

Additional observations from a re-analysis of the deposited data

Results flagged for a closer look

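Each group of 4 rats was checked for a value whose gap to the others exceeded Dixon's 95% critical share of the group's range, for the genes named by the rule and reported here. Of 132 groups 4 passed it, and chance gives about 1 in 20. With monuron, Gbp2 was at 1.31 in replicate 1, where the other rats lay between -0.04 and -0.03, and without that rat its difference from 1,2-dichlorobenzene was 0.74 (limma, adjusted p = 0.0104). With monuron, Phlda3, a p53 target, was at -0.063 in replicate 3, and the others lay between 0.19 and 0.23. With 1,2-dichlorobenzene, Glul was at -1.36 in replicate 1, and the others lay between -0.91 and -0.82. With 1,2-dichlorobenzene, Slc27a5 was at -1.57 in replicate 2, and the others were at -1.68 to -1.67, so this gap is small in size.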

How the results depend on the processing

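Of 1335 values of named genes under the alternatives, 1298 kept their direction and side of the threshold, 24 lost the call and 7 gained it. The other 6 changed sign, all of genes not called under either setting: Cd74 (-0.103) and S100a8 (0.211) in the treated channel, Pla2g1b there (0.054) and with median centring (0.0009), and S100a8 without monuron replicate 3 (0.047) or 1,2-dichlorobenzene replicate 2 (0.029), in a range of -0.097 to 0.047 when 1 array was left out. The number of genes called, 114 (60 higher and 54 lower with monuron), became 70 (29 lower) without background correction, 221 (109 higher and 112 lower) with the scanner's log ratio, 211 (106 higher and 105 lower) with the series table, and 2771 (1205 higher and 1566 lower) without the fold limit. Leaving out 1 array at a time gave 102 to 145 genes (56 to 74 higher, 44 to 71 lower), with the most without 1,2-dichlorobenzene replicate 4. The other settings gave 100 to 123. Leaving out single values whose 2 spots on an array differed by more than 1 log2 unit, an alternative chosen after seeing the data, gave 114. It removed few values, 0 to 18 of the kept probes per array of the compounds. The replicate numbers did not pair the rats: deviations of same-numbered rats correlated at -0.05 to 0.15 and no rat correlated best with its own number. With the number as a replicate block 113 genes were called. Errors exclude the spread between vehicle pools, and slide, dose and compound cannot be told apart.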

Other observations

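In 13 of the 30 gene lists 0 members were called, and their 2 members of largest absolute difference (the 1 measured member for neutrophils) are given as values. Acute phase genes, made by hepatocytes in inflammation, had 11 of 22 measured members higher with monuron at the adjusted p alone and 0 lower, with a median difference of 0.30 beside -0.02 over all genes, and 0 at that threshold with median centring and 7 without replicate 1 of either compound. Their mean log2 ratio was -0.31 to -0.16 per monuron array, against -0.60 to -0.35 per 1,2-dichlorobenzene array, so both compounds lay below vehicle. Orm1, an acute phase glycoprotein, was at 0.42 ± 0.11 with monuron and -0.25 ± 0.13 with 1,2-dichlorobenzene (SD, n = 4 each), and Apcs, the serum amyloid P component, at 0.03 ± 0.076 with monuron and -0.64 ± 0.23 with 1,2-dichlorobenzene. Of 15 measured p53 targets the adjusted p was passed by 6 higher with monuron and 1 lower, with a median of 0.17. Beside this list and the acute phase one, 10.4% of all genes tested were higher at that threshold and 13.5% lower. The kinase gene Plk2 was at 0.27 ± 0.068 with monuron and -0.67 ± 0.28 with 1,2-dichlorobenzene, and Phlda3 at 0.14 ± 0.14 with monuron and -0.68 ± 0.19 with 1,2-dichlorobenzene. Plk2 passed 2-fold with the scanner's log ratio (1.01).

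Of 15 measured genes of fatty acid and triglyceride synthesis 1 passed the adjusted p higher with monuron and 2 lower, with 0 or 1 lower when 1 array was left out. In the treated channel alone 4 passed lower and 0 higher. Pnpla3, a lipid droplet lipase, was at -0.95 ± 0.32 with monuron and 0.78 ± 0.69 with 1,2-dichlorobenzene, a difference of -1.73 that missed the limma threshold (adjusted p = 0.0576) and passed it with the 8 arrays alone (adjusted p = 0.00419). Srebf1, the lipogenic transcription factor, was at -0.96 ± 0.16 with monuron and -0.15 ± 0.16 with 1,2-dichlorobenzene (adjusted p = 0.0274). The treated channel differed by -0.33 and the vehicle channel by 0.49. Of 12 measured clock genes 2 passed the adjusted p alone higher with monuron and 2 lower. Beside these and the fatty acid counts, 10.4% of all genes tested were higher at that threshold and 13.5% lower. Per2 was at -0.92 ± 0.15 with monuron and 0.00 ± 0.17 with 1,2-dichlorobenzene, and Nr1d2 at 0.97 ± 0.20 with monuron and 0.17 ± 0.055 with 1,2-dichlorobenzene. The hour at which livers were taken was not analysed here.

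Of 16 stellate cell and fibrosis genes 5 were higher at the adjusted p alone (10.4% of all genes were), 1 with median centring, 9 in the treated channel and 2 to 5 when 1 array was left out. Among them were Col1a1 at 0.09 ± 0.45 with monuron and -0.46 ± 0.13 with 1,2-dichlorobenzene, and Fn1 at -0.41 ± 0.16 with monuron and -0.93 ± 0.11 with 1,2-dichlorobenzene. Differences not past the adjusted p were 0.34 for Ptprc and 0.25 for Cd74 among lymphocyte genes, 0.30 for Fcgr2b and 0.30 for Lyve1 in endothelium, -0.46 for Pck1 and -0.53 for Slc38a2 among periportal genes, -1.01 for Myc and -0.53 for Zfp36 among immediate early genes, -0.75 for Serpina7 and 0.40 for Apoa2 among secreted proteins, 0.22 for Dnajb9 among chaperones, -0.03 for S100a8 of neutrophils and -0.05 for Pla2g1b of acinar cells. The chaperone gene Hyou1 passed it at -0.51 (adjusted p = 0.00943) and the acinar gene Cela1 at 0.49 (adjusted p = 0.0321).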
